A study of Homo sapiens with 4 samples.

Results

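The genes described here are 46 genes of the acute phase response, the chemokines, the inflammatory cytokines and the NF-kB pathway, chosen by name from the 58825 gene rows of the count tables. They were compared between MET+ and MET-KO LoVo cells by 3' RNA sequencing, with 2 libraries in each group. LoVo is a cell line from a human colon adenocarcinoma in which the receptor tyrosine kinase MET is constantly active. The MET+ cells are labelled as GFP controls of wild type genotype. The MET-KO cells are labelled as MET knockout and were made with CRISPR/Cas9, puromycin selection and the picking of single clones, and the sources do not say whether both MET-KO libraries come from 1 clone. Both groups were grown in the same DMEM medium with fetal bovine serum, and no cytokine or inflammatory stimulus is named for either. Labels call the libraries biological replicates without saying how the cultures were separated, so the p-values measure the spread between these libraries, which may be technical.

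NF-kB is a family of dimeric transcription factors held in the cytoplasm by inhibitor proteins of the IkB type. Signals such as TNF, IL-1 or microbial products activate a kinase complex that marks the inhibitors for degradation, and the dimers then enter the nucleus and bind kappaB sites near chemokine, cytokine and acute phase genes. Several of the genes switched on in this way encode inhibitors of the pathway itself, so that the response limits its own length, and in the intestinal epithelium the same genes are known for recruiting neutrophils and monocytes.

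The libraries held 8429142 to 10286552 counts. The target gene MET went from 2794 and 3272 counts (MET+) to 861 and 965 counts (MET-KO), so it was lower in both MET-KO libraries but its 3' reads were not lost. Reads from the 3' end do not show an edit elsewhere in the gene, so they do not check the knockout itself. The groups differed far beyond this gene: of 13801 tested genes, 54.1% passed an adjusted p of 0.05 in edgeR's quasi-likelihood test (Benjamini-Hochberg adjustment), 27.2% higher and 26.9% lower in MET-KO cells. Genes of chromosome Y summed to 57 and 45 counts (MET+) and to 7200 and 7330 counts (MET-KO), and the median log2 fold change was -0.43, -0.32, -0.52 and -0.43 on chromosomes 5, 12, 14 and 15, 0.50 on chromosome 7, which carries MET, and 0.30 on chromosome 21. Of 12 epithelial markers, 9 or 10 had a count in each library, and the list summed to 9777 and 9812 CPM in MET+ and to 8321 and 7337 CPM in MET-KO cells. Of the 11 epithelial markers tested, 8 fell and 2 rose, and their median log2 fold change was -0.88. CEACAM5 (392 and 487 counts in MET+), CEACAM6 (629 and 723), LGALS4 (89 and 107) and VIL1 (43 and 58) had at most 3 counts in a MET-KO library. KRT20, a keratin of differentiated colon cells, was at 0 in both MET+ libraries and had 27 and 28 counts in the MET-KO libraries. Of 15 leukocyte and stroma markers, 8 to 11 were at 0 in each library. The list summed to 8.7 and 12.01 CPM in MET+ and to 2.353 and 2.855 CPM in MET-KO cells, and PTPRC, the common leukocyte antigen, was at 0 in all 4. The part of these differences between the cells in the results below was not tested, and the effect of MET and a difference between the clones or lines cannot be told apart. As RNA was taken from bulk cultures, a change in the share of expressing cells and a change in RNA per cell cannot be told apart either.

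Short stretches of promoter are shown first, since the kappaB site is what the pathway reads. RefSeq windows from 250 bases before to 50 bases after the gene start (GRCh38.p14) were at hand for 33 of the 46 genes. Both strands were searched for 2 kappaB-type motifs, GGG followed by any 3 bases and TTCC, and GGAANTTCC, which overlap in sequences such as that of CXCL1, and for the AP-1-type motif TGANTCA. The printed stretches of 30 bases are given 5' to 3' on the strand of the gene, with every base covered by a kappaB-type match in capitals. The first 6 belong to the neutrophil-attracting chemokines, then come genes of NF-kB itself and its inhibitors, and the last 4 are genes at very different levels in these cells.

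CXCL1 (chr4:73869304-73869333, plus strand): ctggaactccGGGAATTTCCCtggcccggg
CXCL2 (chr4:74099254-74099283, minus strand): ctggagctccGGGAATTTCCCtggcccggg
CXCL3 (chr4:74038749-74038778, minus strand): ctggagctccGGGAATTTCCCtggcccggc
CXCL5 (chr4:73998749-73998778, minus strand): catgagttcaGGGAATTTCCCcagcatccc
CXCL6 (chr4:73836578-73836607, plus strand): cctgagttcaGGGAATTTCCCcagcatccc
CXCL8 (chr4:73740467-73740496, plus strand): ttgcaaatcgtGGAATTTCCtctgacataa
NFKB1 (chr4:102501300-102501329, plus strand): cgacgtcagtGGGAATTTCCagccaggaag
NFKBIA (chr14:35404811-35404840, minus strand): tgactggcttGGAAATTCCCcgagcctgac
NFKBIZ (chr3:101827757-101827786, plus strand): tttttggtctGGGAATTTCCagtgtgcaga
TNFAIP3 (chr6:137867188-137867217, plus strand): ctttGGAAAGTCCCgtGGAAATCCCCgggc
IL32 (chr16:3065294-3065323, plus strand): cctgtactcaGGGAGTTTCCccagccagct
LCN2 (chr9:128149268-128149297, plus strand): cagcactccgGGAATGTCCCtcactctccc
ICAM1 (chr19:10270923-10270952, plus strand): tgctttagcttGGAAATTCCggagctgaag
IL6 (chr7:22727117-22727146, plus strand): tatcaaatgtGGGATTTTCCcatgagtctc

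The first kappaB-type motif was present in 54.5% of the 33 genes with a window (18 genes) and in 7.83% of all 27305 genes with one. GGAANTTCC was present in 36.4% of them (12 genes) and in 317 of all 27305 genes, and TGANTCA in 18.2% (6 genes) and 9.37%. CXCL1, CXCL2 and CXCL3 carried the same 11-letter core, starting 79, 78 and 79 bases before the gene start, and CXCL5 and CXCL6 carried it 91 and 90 bases before the start. The other genes with a kappaB-type match were NFKB2 with 3 matches, and IL1RN, CCL20, CXCL10, SOCS3 and TSLP. A kappaB-type match was present in 8 of 14 genes that were higher in MET-KO cells, 4 of 7 that were lower, 4 of 5 that were not called and 4 of 7 that were not tested. So genes that moved in opposite directions, and genes without a count such as IL6 and CXCL6, carried the same kind of site. The plot of motif positions shows where the matches lie.

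Of the 46 genes, 40 had a count in at least 1 library and 37 passed the filter on low counts. Among these, 32 (86.5%, beside the background of 54.1%) were called, and 5 were not. The list was chosen with earlier results of these data known, so a share above the background is no test of the group. The called genes were 23 that rose and 9 that fell in MET-KO cells. With a log2 fold change of at least 1 in size besides, 16 rose and 8 fell, beside 24.3% of all tested genes called by that rule, 14.5% higher and 9.81% lower. DESeq2's Wald test called 20 of the 46 genes higher and 7 lower, beside 33.1% of all the genes that it tested, 16.2% higher and 16.8% lower. The median log2 fold change was 0.93, beside 0.01 over all tested genes. For 9 of the 37 genes, 1 group had at most 3 counts in each library. They were SAA1, SAA2, CCL2, IL1A, IL1B, IL1RN, IL33, CSF2 and TNF. They passed the filter through the other group and had to differ, so their calls and p-values below add no support. Of the other 28 genes, 15 were higher and 8 lower. CCL5 and ICAM1, among the 15, also passed the filter through the MET-KO libraries alone. Their direction was thus fixed too, and their calls add no support. The libraries of the 2 groups did not overlap for 34 of the 37 genes, beside 75.6% of all tested genes. The 34 include the 9 genes above, CCL5 and ICAM1, for which the filter fixed this, so the share adds no support. With 2 libraries against 2, the smallest p that an exact permutation test of a single gene allows is 0.333, and each p below is from the edgeR fit across all genes. The plot of CPM by library shows all 40 genes with a count. CPM is the count scaled to a common library total after TMM scaling.

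**Figure D1:**
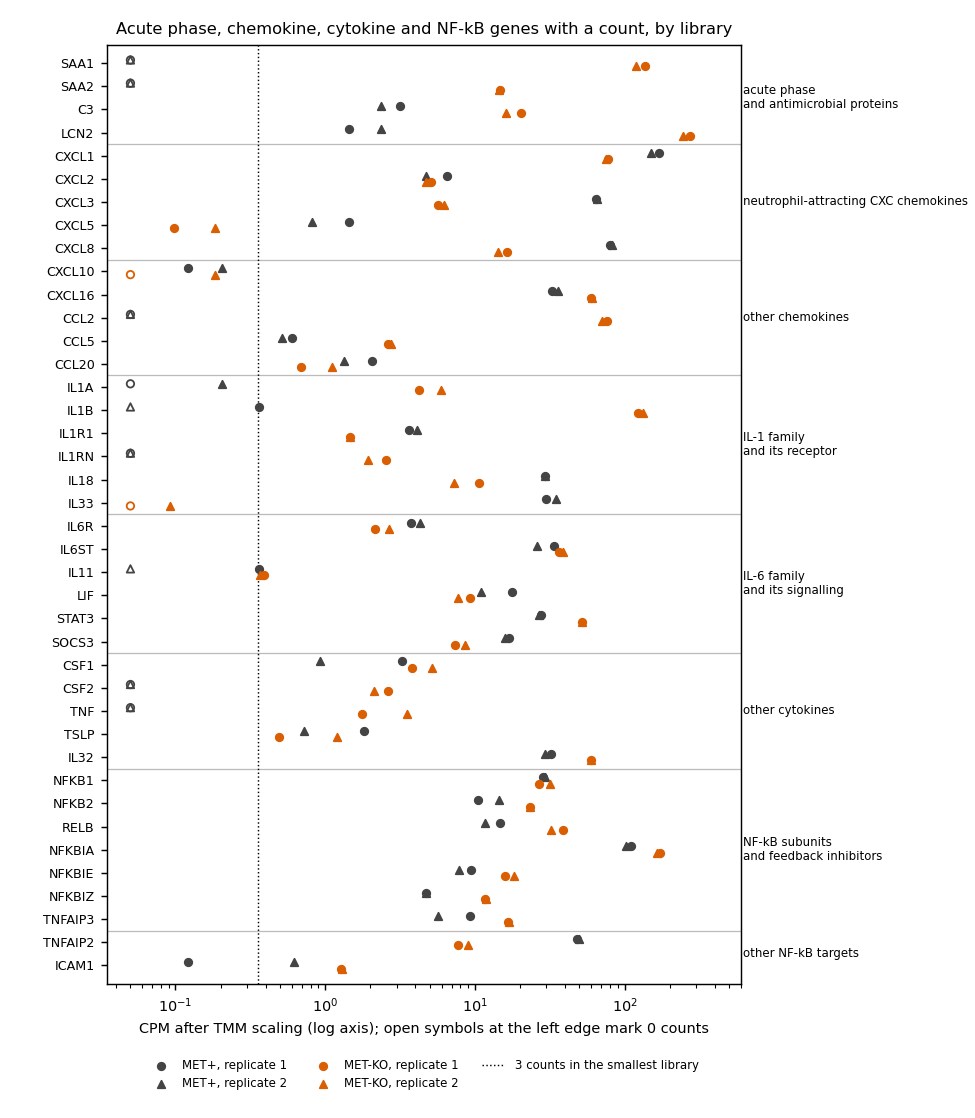
CPM of each gene with a count in each of the 4 libraries, on a log axis, grouped by role. Grey symbols are MET+ and orange symbols MET-KO libraries, circles replicate 1 and triangles replicate 2, and open symbols at the left edge stand for 0 counts. The dotted line is the level of 3 counts in the smallest library. SAA1, CCL2 and IL1B lie between 70.5 and 137.4 CPM in MET-KO cells and at or near 0 in MET+ cells, and IL33 does the opposite.

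The acute phase and antimicrobial genes were all higher in MET-KO cells where they could be tested (4 of 5 genes). Over all tested genes, 27.2% were called higher. SAA1 and SAA2 passed the filter through the MET-KO libraries alone. SAA1 (ENSG00000173432, chromosome 11, 18266174 to 18269977) encodes serum amyloid A, a lipoprotein-bound acute phase protein. It had 0 counts in each MET+ library and 1401 and 1287 counts in MET-KO libraries, which was at least 381.7-fold higher when set against a floor of 3 counts per library (adjusted p = 1.62e-25, edgeR's quasi-likelihood test, Benjamini-Hochberg adjustment). Its neighbour SAA2 had 0 counts in each MET+ library and 150 and 158 in MET-KO libraries, at least 43.6-fold higher (adjusted p = 1.37e-14, same edgeR test). The 2 genes are near copies: 35.9% of the 50-base words in the last 500 bases of SAA1 were also found in its paralogs and none of those of SAA2, so the split of reads between them is uncertain. Only the transcript with the longest annotated 3' UTR was searched for each gene (273 bases for SAA1 and 725 for SAA2). The 500 bases of SAA2 thus lay wholly within that UTR, and other SAA2 ends were not searched. SAA2 also shares its strand with the readthrough gene SAA2-SAA4, which was at 0.

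LCN2 encodes lipocalin 2, a neutrophil and epithelial protein that binds bacterial siderophores. LCN2 had 1.45 and 2.36 CPM in MET+ and 274.7 and 244.8 CPM in MET-KO cells, a log2 fold change of 7.06 (SE 0.17, adjusted p = 2.01e-27, edgeR's quasi-likelihood test). The 2 libraries of each group were far closer to each other than to those of the other group. C3, the central complement component, had 3.14 and 2.36 CPM in MET+ and 20.3 and 16.1 CPM in MET-KO cells, a log2 fold change of 2.73 (SE 0.25, adjusted p = 2.51e-11, same test). C3 overlaps GPR108 and AC008760.2 on the same strand. CFB, complement factor B, was at 0 in all 4 libraries. It overlaps C2 and AL645922.1 on the same strand. How reads that fall in 2 genes were counted is not given in the sources used here, so this 0 does not bound its level.

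The neutrophil-attracting CXC chemokines went the other way: of 6 genes that signal through CXCR1 and CXCR2, 4 were tested. Of the 4 tested, 3 fell and none rose, beside 26.9% of all tested genes called lower. CXCL8, interleukin 8, had 79.9 and 82.9 CPM in MET+ and 16.3 and 14.3 CPM in MET-KO cells, a log2 fold change of -2.42 (SE 0.13, adjusted p = 1.09e-17, edgeR's quasi-likelihood test). CXCL3 had 64.3 and 65.2 CPM in MET+ and 5.69 and 6.26 CPM in MET-KO cells, a log2 fold change of -3.43 (SE 0.15, adjusted p = 9.24e-20, same test). CXCL1 had 169.2 and 150.6 CPM in MET+ and 77.1 and 75.5 CPM in MET-KO cells, a log2 fold change of -1.07 (SE 0.10, adjusted p = 3.61e-11, same test). In each of the 3, both MET-KO libraries lay below both MET+ libraries with a wide gap.

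CXCL2 was not called, with 6.53 and 4.72 CPM in MET+ and 5.10 and 4.70 CPM in MET-KO cells (log2 fold change -0.19, SE 0.29, adjusted p = 0.613, edgeR's quasi-likelihood test). CXCL2 thus differed from its near copies CXCL1 and CXCL3 in outcome, although all 3 carry the same 11 bases shown above. CXCL1 and CXCL2 share 10.2% of the 50-base words of their last 500 bases, and CXCL3 shares none. CXCL5 had 12 and 8 counts in MET+ and 1 and 2 in MET-KO libraries and was not tested. The ratio was 7.79-fold lower in MET-KO cells (95% exact interval 2.31 to 40.95, counting error only). CXCL6, which overlaps PPBPP1 on the same strand, had no count. These 6 genes lie in 1 cluster on chromosome 4 (GRCh38, 73740506 to 74099293).

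The remaining chemokines attract other cells, and 3 of the 4 tested rose, beside 27.2% of all tested genes. CCL2 and CCL5 passed the filter through the MET-KO libraries alone, so their direction was fixed and their calls add no support. CCL2, which recruits monocytes through CCR2 (chromosome 17, 34255218 to 34257203), had 0 counts in each MET+ library and 778 and 766 in MET-KO libraries, at least 219.0-fold higher (adjusted p = 1.92e-23, edgeR's quasi-likelihood test). CCL5, which attracts T cells and monocytes, had 5 and 5 counts in MET+ and 27 and 30 in MET-KO libraries, a log2 fold change of 2.26 (SE 0.54, adjusted p = 0.000584, same test). CXCL16, a membrane-bound ligand of CXCR6, had 32.8 and 35.9 CPM in MET+ and 59.8 and 60.6 CPM in MET-KO cells, a log2 fold change of 0.81 (SE 0.12, adjusted p = 3.76e-07, same test). For all 3 the MET-KO values lay above the MET+ values, which was fixed for CCL2 and CCL5. CCL5 and CXCL16 each overlap a gene on the other strand (AC015849.1 and MED11), and the strand setting of the counting is not given in the sources used here.

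CCL20, the ligand of CCR6 in mucosal lymphoid tissue, had 17 and 13 counts in MET+ and 7 and 12 in MET-KO libraries and was not called (log2 fold change -0.89, adjusted p = 0.164, edgeR's quasi-likelihood test). CXCL10, an interferon-induced ligand of CXCR3, had at most 2 counts in a library. CX3CL1 and the epithelial chemokine CCL28 had none. Of the tested chemokines that attract neutrophils, CXCL1, CXCL3 and CXCL8 fell and CXCL2 was not called. CCL2 and CCL5, which attract monocytes, rose, but the filter fixed their direction. No contrast between the 2 kinds of chemokine is drawn from these tests.

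The IL-1 family split evenly, with 3 of its 6 genes higher and 3 lower. Of all tested genes, 27.2% were called higher and 26.9% lower. IL1A, IL1B, IL1RN and IL33 passed the filter through 1 group, so their direction was fixed. IL1B, the secreted pyrogenic cytokine that inflammasomes process (chromosome 2, 112829751 to 112836903), had 3 and 0 counts in MET+ and 1257 and 1437 in MET-KO libraries, a ratio of 768.4 (95% exact interval 262.6 to 3728, counting error only; adjusted p = 1.83e-25, edgeR's quasi-likelihood test). IL1A, the cell-bound alarmin of the same receptor, had 0 and 2 counts in MET+ and 43 and 65 in MET-KO libraries, a ratio of 46.2 (interval 12.5 to 386.4, adjusted p = 2.78e-08, same test). IL1RN, which encodes the antagonist of that receptor, had 0 counts in each MET+ library and 26 and 21 in MET-KO libraries, at least 6.69-fold higher (adjusted p = 2.67e-06, same test). The 3 genes lie in 1 cluster on chromosome 2, and both agonists and the antagonist rose.

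IL33, an alarmin kept in the nucleus of epithelial and stromal cells, was the reverse. It had 248 and 342 counts in MET+ and 0 and 1 in MET-KO libraries, a ratio of 689.5-fold lower (95% exact interval 123.3 to 27280, counting error only; adjusted p = 2.53e-19, edgeR's quasi-likelihood test). IL18, which induces interferon gamma, had 29.4 and 29.3 CPM in MET+ and 10.6 and 7.28 CPM in MET-KO cells, a log2 fold change of -1.72 (SE 0.18, adjusted p = 5.24e-10, same test). IL1R1, the signalling receptor for IL1A and IL1B, had 30 and 40 counts in MET+ and 15 and 16 in MET-KO libraries, a log2 fold change of -1.39 (SE 0.41, adjusted p = 0.00499, same test). That call was lost in DESeq2's Wald test (adjusted p = 0.0703), and IL1R1 overlaps the antisense gene IL1R1-AS1. The ligands thus rose in MET-KO cells in which the counts of their receptor were lower in both libraries.

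Genes of the IL-6 family and its signalling changed by less. IL6 itself, the main inducer of hepatic acute phase genes, was at 0 in all libraries, and IL11 had 3, 0, 4 and 4 counts (ratio 2.28, 95% exact interval 0.548 to 13.35). STAT3, the transcription factor downstream of these cytokines, had 27.7 and 26.8 CPM in MET+ and 52.3 and 51.8 CPM in MET-KO cells, a log2 fold change of 0.93 (SE 0.12, adjusted p = 5.78e-08, edgeR's quasi-likelihood test). SOCS3, a STAT3-induced inhibitor of that pathway, had 16.9 and 16.0 CPM in MET+ and 7.35 and 8.56 CPM in MET-KO cells, a log2 fold change of -1.04 (SE 0.20, adjusted p = 3.52e-05, same test). STAT3 and SOCS3 therefore moved in opposite directions, each with no overlap between the groups.

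IL6ST, the gp130 subunit shared by the family's receptors, had 34.0 and 26.1 CPM in MET+ and 36.8 and 39.0 CPM in MET-KO cells, a log2 fold change of 0.34 (SE 0.13, adjusted p = 0.0317, edgeR's quasi-likelihood test). It lies on chromosome 5, and its value above the chromosome's median was 0.77. LIF, leukaemia inhibitory factor, had 17.8 and 11.0 CPM in MET+ and 9.22 and 7.74 CPM in MET-KO cells, a log2 fold change of -0.75 (SE 0.22, adjusted p = 0.00462, same test), or -0.37 without MET+ replicate 1 (adjusted p = 0.202). DESeq2's Wald test called neither IL6ST (adjusted p = 0.199) nor LIF (adjusted p = 0.0659). IL6ST was also not called without MET+ replicate 2, where its log2 fold change was 0.15 (adjusted p = 0.459), or without MET-KO replicate 1 (0.38, adjusted p = 0.0507) or 2 (0.30, adjusted p = 0.138), and it was 0.54 without MET+ replicate 1. IL6R, the ligand-binding subunit for IL6, had 31 and 42 counts in MET+ and 22 and 29 in MET-KO libraries and was not called (adjusted p = 0.0871, edgeR's quasi-likelihood test).

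Of the other cytokines, 4 of the 5 tested rose, beside 27.2% of all tested genes called higher. Among the 4, TNF and CSF2 rose from 0 to few counts and passed the filter through the MET-KO libraries alone. TNF, a classic activator of NF-kB, had 0 counts in each MET+ library and 18 and 38 in MET-KO libraries, at least 7.85-fold higher (adjusted p = 1.43e-06, edgeR's quasi-likelihood test). CSF2, the growth factor GM-CSF, had 0 counts in each MET+ library and 27 and 23 in MET-KO libraries, at least 7.11-fold higher (adjusted p = 1.67e-06, same test). IL32, a cytokine with several intracellular forms, had 32.3 and 29.3 CPM in MET+ and 59.3 and 59.6 CPM in MET-KO cells, a log2 fold change of 0.95 (SE 0.12, adjusted p = 2.21e-08, same test). In all 3 the groups were apart, as for 75.6% of all tested genes, but for TNF and CSF2 this was fixed. Of the 3, only IL32 had a substantial level in MET+ cells.

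CSF1, the growth factor of macrophages, had 27 and 9 counts in MET+ and 39 and 56 in MET-KO libraries, a log2 fold change of 1.15 (SE 0.42, adjusted p = 0.02, edgeR's quasi-likelihood test). The 2 MET+ libraries were far apart, and the log2 fold change was 0.46 without MET+ replicate 2 (adjusted p = 0.364) and 2.27 without MET+ replicate 1. The call was also lost without MET-KO replicate 2 (0.90, adjusted p = 0.198), and DESeq2's Wald test did not call CSF1 (adjusted p = 0.179). TSLP, an epithelial cytokine that acts on dendritic cells, had 15 and 7 counts in MET+ and 5 and 13 in MET-KO libraries, and the groups overlapped (adjusted p = 0.478, edgeR's quasi-likelihood test). CSF3, the growth factor G-CSF, had no count.

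The subunits and feedback inhibitors of NF-kB formed the most even group: 6 of 7 genes rose, beside 27.2% of all tested genes. The log2 fold changes of the 6 lay between 0.66 and 1.45, none of the 7 fell, and the median was 0.996. NFKBIA, which encodes the inhibitor IkB alpha, had 111.3 and 102.9 CPM in MET+ and 172.2 and 165.0 CPM in MET-KO cells, a log2 fold change of 0.66 (SE 0.09, adjusted p = 4.49e-07, edgeR's quasi-likelihood test). It lies on chromosome 14, and its value above that chromosome's median was 1.17. TNFAIP3, the ubiquitin-editing inhibitor A20, had 9.31 and 5.65 CPM in MET+ and 16.6 and 16.9 CPM in MET-KO cells, a log2 fold change of 1.177 (SE 0.21, adjusted p = 1.98e-05, same test). NFKBIE had 9.43 and 7.80 CPM in MET+ and 15.9 and 18.3 CPM in MET-KO cells, a log2 fold change of 0.996 (SE 0.20, adjusted p = 6.2e-05, same test). NFKBIZ, a nuclear IkB protein that also switches genes on, had 4.71 and 4.72 CPM in MET+ and 11.7 and 11.8 CPM in MET-KO cells, a log2 fold change of 1.31 (SE 0.24, adjusted p = 1.9e-05, same test). For the 4 inhibitors the MET-KO values were both above the MET+ values.

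Both subunit genes of the non-canonical arm of the pathway rose. RELB had 14.6 and 11.7 CPM in MET+ and 38.9 and 32.5 CPM in MET-KO cells, a log2 fold change of 1.45 (SE 0.16, adjusted p = 1.66e-09, edgeR's quasi-likelihood test). NFKB2, which encodes p100 and its product p52, had 10.5 and 14.6 CPM in MET+ and 23.4 and 23.3 CPM in MET-KO cells, a log2 fold change of 0.89 (SE 0.17, adjusted p = 5.71e-05, same test). NFKB1, the p105 and p50 subunit of the canonical dimer, was not called, with 28.4 and 29.3 CPM in MET+ and 26.7 and 31.9 CPM in MET-KO cells (log2 fold change 0.02, SE 0.14, adjusted p = 0.906, same test). The groups overlapped for NFKB1 and were apart for RELB and NFKB2.

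A pair of further NF-kB target genes differed in direction. ICAM1 passed the filter through the MET-KO libraries alone, so its direction was fixed. TNFAIP2, a TNF-induced protein of membrane nanotubes, had 48.46 and 49.99 CPM in MET+ and 7.75 and 8.93 CPM in MET-KO cells, a log2 fold change of -2.56 (SE 0.15, adjusted p = 4.48e-16, edgeR's quasi-likelihood test). TNFAIP2 lies on chromosome 14, and its value below that chromosome's median was -2.04. ICAM1, the adhesion molecule that leukocytes bind, had 1 and 6 counts in MET+ and 13 and 14 in MET-KO libraries (log2 fold change 1.70, SE 0.68, adjusted p = 0.0337, same test). ICAM1 was not called by DESeq2's Wald test (adjusted p = 0.268), without the filter on low counts (0.0745) or without MET+ replicate 1, where its log2 fold change was 1.05 (0.313), or without MET-KO replicate 1 (0.197) or 2 (0.202).

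**Figure D2:**
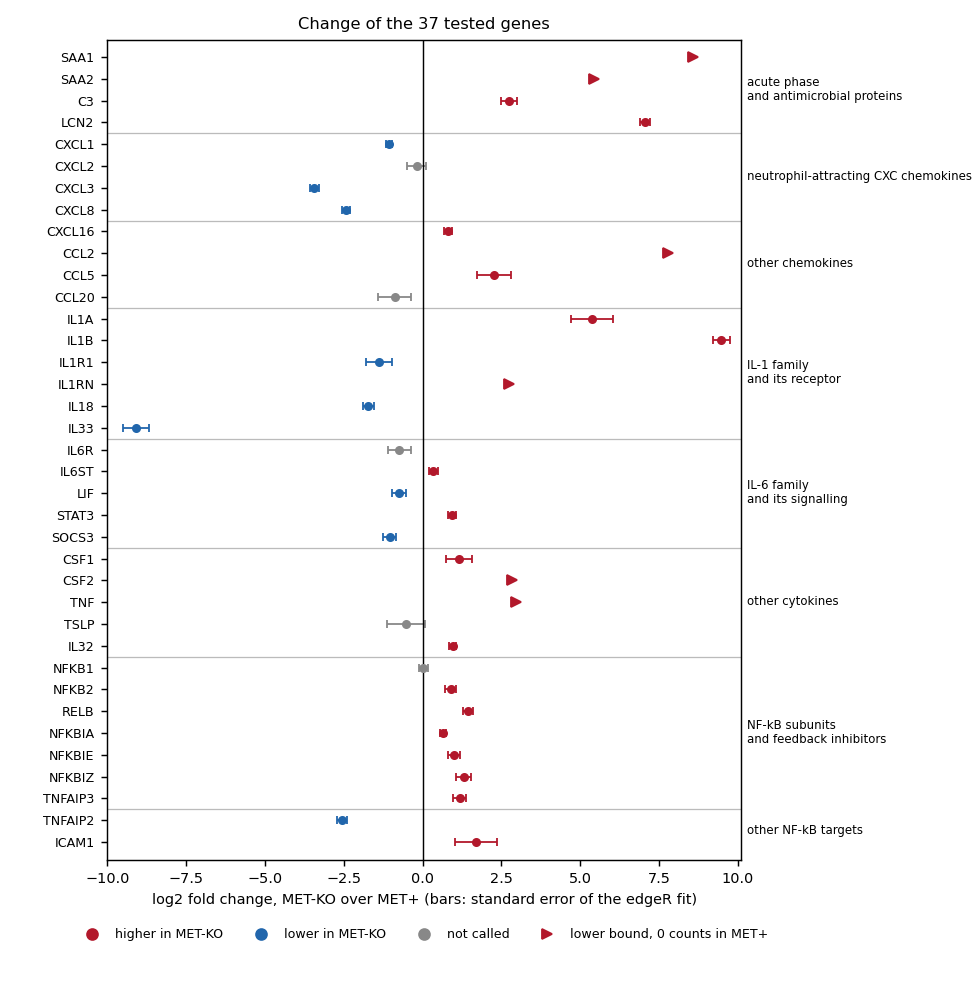
Log2 fold change of MET-KO over MET+ for each of the 37 tested genes, grouped by role, with bars for the standard error of the edgeR fit. Triangles are lower bounds for genes at 0 counts in both MET+ libraries. The acute phase genes and the NF-kB inhibitors lie on the right of 0, and CXCL1, CXCL3 and CXCL8 on the left.

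The messages of many of these genes are short-lived because of AU-rich elements in their 3' UTRs, which proteins such as tristetraprolin bind. The core TATTTAT, searched in the longest annotated 3' UTR of each gene (GENCODE version 29), was present in 22 of the 46 genes (47.8%) and in 31.1% of 19132 coding genes. It was present in 9 of 23 genes that were higher and 5 of 9 that were lower in MET-KO cells. One 25-base site is shown for 4 genes, with the core in capitals, because they moved in opposite directions.

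CXCL1: gaagtcttcTATTTATttatttatt
CXCL3: ggttctactTATTTATgtatttatt
IL1B: ccgcttcccTATTTATttatttatt
TNF: agctccctcTATTTATgtttgcact

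These sites begin 145 bases after the stop codon in CXCL1, 159 in CXCL3, 345 in IL1B and 442 in TNF. CXCL1 and CXCL3 fell and IL1B and TNF rose.

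The rest of the pathway was followed in 3 lists that hold none of the 46 genes. Genes named from them below as lower or higher passed the threshold of the edgeR test. Of 42 genes of the NF-kB signalling machinery (receptors, adaptors, kinases, other subunits and inhibitors), 35 were tested and 18 called (51.4%, beside the background of 54.1%), 8 higher and 10 lower, with a median log2 fold change of -0.04. TNFRSF1A, the main TNF receptor, had 114.4 and 97.7 CPM in MET+ and 24.22 and 24.96 CPM in MET-KO cells, a log2 fold change of -2.11. LTBR, the lymphotoxin beta receptor at the head of the non-canonical arm, had 137.5 and 134.8 CPM in MET+ and 52.2 and 44.8 CPM in MET-KO cells, a log2 fold change of -1.49. TNFRSF21 (log2 fold change -2.16), TLR6 (-1.92) and IRAK2 (-1.16) also fell, although IRAK2 was not called without MET+ replicate 1 (-0.62, adjusted p = 0.236) or by DESeq2's Wald test (adjusted p = 0.0804). TNFRSF1A and LTBR lie on chromosome 12, whose median log2 fold change was -0.32. Of these 5 genes all but IRAK2, a kinase of the IL-1 and Toll-like receptor pathway, are receptors. TLR6 passed the filter through the MET+ libraries alone, so its direction was fixed. The receptor TNFRSF1B was called higher (log2 fold change 0.68).

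Among kinases and adaptors the called genes went both ways. CHUK (log2 fold change -0.57), RIPK1 (-0.53), TICAM1 (-0.48) and IRAK1 (-0.46) fell, and TBK1 (0.72) and TRAF3 (0.55) rose. IKBKB, the kinase of the inhibitor IkB alpha, had 15.4 and 15.3 CPM in MET+ and 36.1 and 44.4 CPM in MET-KO cells, a log2 fold change of 1.39. MAP3K14, the kinase of the non-canonical arm, had 5.80 and 3.49 CPM in MET+ and 8.33 and 10.2 CPM in MET-KO cells, a log2 fold change of 1.02. TRAF1 had 1 and 2 counts in MET+ and 20 and 24 in MET-KO libraries. TLR2, a receptor of bacterial lipoproteins, had 0 and 0 against 17 and 40 counts. TRAF1 and TLR2 passed the filter through the MET-KO libraries alone, so their direction was fixed and their calls add no support. RELA, the p65 subunit, had 79.6 and 64.6 CPM in MET+ and 65.3 and 51.8 CPM in MET-KO cells, so the groups overlapped, and its log2 fold change was -0.30 (adjusted p = 0.0336, edgeR's quasi-likelihood test). RELA was not called with library totals (adjusted p = 0.151), with a minimum of 10 counts per library (0.0575), by DESeq2's Wald test (0.167), or without MET+ replicate 1 or MET-KO replicate 2 (log2 fold change -0.14 in both, adjusted p = 0.419 and 0.425).

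Of 39 cytokine and chemokine receptors and their signalling genes, 26 were tested and 11 called (42.3%, beside the background of 54.1%). Of these 5 rose and 6 fell, and the median of the tested genes was 0.18. IL1R2, the decoy receptor that captures IL-1 without signalling, had 147.2 and 145.3 CPM in MET+ and 7.94 and 6.72 CPM in MET-KO cells, a log2 fold change of -4.32 (adjusted p = 2.34e-24, edgeR's quasi-likelihood test), so the decoy fell where IL1B and IL1A rose. CXCR4, the receptor of CXCL12, had 37.0 and 32.0 CPM in MET+ and 6.47 and 5.07 CPM in MET-KO cells, a log2 fold change of -2.58. CSF2RA (-2.47), IL4R (-1.09) and IL22RA1 (-1.04) were also lower, and CCR10 (2.30) and IL11RA (1.13) higher. CSF2RA passed the filter through the MET+ libraries alone and CCR10 through the MET-KO libraries alone, so their direction was fixed. IL22RA1 was not called without MET-KO replicate 1 (adjusted p = 0.0808) or by DESeq2's Wald test (adjusted p = 0.0739).

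Of 25 other genes known to respond to NF-kB, 14 were tested and 12 called (85.7%, beside the background of 54.1%). Of these 6 rose and 6 fell, and the median of the tested genes was 0.09. This list, too, was chosen with earlier results of these data known. BIRC3, an inhibitor of cell death that also acts on the non-canonical kinase, had 2.05 and 2.05 CPM in MET+ and 59.1 and 60.2 CPM in MET-KO cells, a log2 fold change of 4.85. LTB, lymphotoxin beta, the ligand of LTBR, had 7.73 and 9.75 CPM in MET+ and 125.5 and 106.7 CPM in MET-KO cells, a log2 fold change of 3.72. PTGES, prostaglandin E synthase, had 5.32 and 5.95 CPM in MET+ and 141.6 and 96.5 CPM in MET-KO cells, a log2 fold change of 4.39. In all 3 the groups were far apart, and LTB rose where its receptor LTBR fell.

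IRF1 (log2 fold change 1.54) and CD83 (1.38) also rose. CEBPD, a transcription factor of the acute phase response, had 46.9 and 44.0 CPM in MET+ and 7.65 and 6.81 CPM in MET-KO cells, a log2 fold change of -2.65, and BCL3, a nuclear IkB protein, fell by 1.01 on the log2 scale. So CEBPD was lower in the cells in which SAA1, SAA2 and C3 were higher. The plot of the lists sets these values beside those of the 46 genes.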

How the data were processed

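The authors deposited 1 table of gene counts for each of 4 QuantSeq 3' libraries, as whole counts without normalization. Per the labels, bcl2fastq, cutadapt 1.16, FastQC 0.11.7, MultiQC 1.5, STAR 2.5.4a, featureCounts 1.6.2, DESeq2 1.18.1 and the build GRCh38 were used. The annotation release and strand setting are not given in the sources used here. No molecular identifiers are described, so intervals cover counting error only.

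Gene names and positions came from GENCODE version 29, in which 58552 of 58825 gene IDs were found, and the 99 spike-in rows held 0 counts. Counts were tested in R 4.3.3 with edgeR 4.0.16 (filterByExpr, TMM, group as the only term, quasi-likelihood test, Benjamini-Hochberg adjustment over 13801 genes, threshold 0.05), after a test on simulated data. In the text on single genes, bounds or exact ratios replaced fold changes where a group had at most 3 counts in each library. The plots of fold changes use bounds only for genes at 0 counts in a group. Other genes are drawn at their fitted values, and the medians in the text use fitted values throughout. The alternatives were DESeq2 size factors, library totals, DESeq2 1.42.0, no filter, a minimum of 10 counts per library, removed chromosome medians, the replicate block, a log2 fold change of 1 or more in size, and leaving out each library. The listed genes and pathway lists were chosen with earlier results of these data known. All 46 genes are accounted for. Of the pathway lists, those called with a log2 fold change of 1 or more in size are named, at most 6 in each direction. RELA was added after its value was seen. So were TNFRSF1B, CHUK, RIPK1, TICAM1, IRAK1, TBK1 and TRAF3, which are not among the named genes followed over the alternatives. Neighbouring genes were also picked after their values were seen.

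No promoter window was used for SAA1, SAA2, C3, CXCL16, CX3CL1, CCL2, CCL5, IL18, LIF, CSF1, CSF3, RELB and NFKBIE. Promoter windows are from RefSeq (GRCh38.p14). Plots were made with matplotlib 3.10.9 in Python 3.11.15.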

Additional observations from a re-analysis of the deposited data

How the results depend on the processing

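Over 11 alternatives fitted for single genes, 51 of the 62 named genes kept their direction and their side of the threshold wherever they had a value (43 genes had one with a minimum of 10 counts per library). Of 663 values 635 did so, 24 lost the call and 4 changed sign. The 4 belonged to genes that were not called: NFKB1 with chromosome medians removed (-0.043), and NFKB1 (-0.11 to 0.14), CXCL2 (-0.42 to 0.054) and TSLP (-1.32 to 0.24) when 1 library was left out. With a minimum of 10 counts per library, 23 of the 46 genes were left, of which 12 rose and 8 fell (52.5% of all genes so tested were called), and their median log2 fold change was 0.38, since genes at or near 0 in a group are removed. With a log2 fold change of 1 or more in size, 24 of the 32 called genes met the rule, and in the lists 9 of 35 machinery, 7 of 26 receptor and 7 of 14 response genes, beside 24.3% of all tested genes. Leaving out 1 library gave 20 to 22 genes higher and 8 to 10 lower, a median of 0.84 to 0.96, and 17 to 19, 9 to 13 and 11 to 13 called genes in those lists, beside 44% to 49.1% of all genes tested (21.3% to 25.2% higher). DESeq2's Wald test called 20 higher and 7 lower of the 46 genes, and 33.1% of all genes it tested. Library totals without TMM moved the median of all genes to 0.11 and that of the listed genes to 1.03, and the calls over all genes to 31.6% higher and 21.7% lower. Replicate numbers are shared between the groups, but the differences between replicates 1 and 2 of the 2 groups correlated at -0.02, so the numbers do not pair the samples. With the replicate block, 23 genes rose and 9 fell, their median was 0.93, and 18, 12 and 12 genes of the lists were called, beside 51.1% of all genes. Genes with few counts, such as ICAM1, TSLP and CCL20, are limited by depth.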

Other observations

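Several of the listed genes lie in gene clusters, whose other coding genes were looked at after the values were seen. In the IL-1 cluster on chromosome 2 (GRCh38, 112773915 to 113134016), which holds 9 coding genes, IL37, an anti-inflammatory member of the family, had 2 and 0 counts in MET+ and 2248 and 2035 in MET-KO libraries. The ratio was 1832 (95% exact interval 506.9 to 15140, counting error only; adjusted p = 5.79e-27, edgeR's quasi-likelihood test, Benjamini-Hochberg adjustment). IL37 passed the filter on low counts through the MET-KO libraries, so its direction was fixed. The other 5 genes of the cluster that are not among the 46 were not tested. IL36G had 0 counts in each MET+ library and 6 and 5 in MET-KO libraries, and IL36A and IL36B had none.

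In the CC chemokine cluster on chromosome 17, within 34145218 to 34367203, 2 of the 5 neighbours of CCL2 were tested. Both were called higher, beside 27.2% of all tested genes. Both were at 0 in the MET+ libraries and passed the filter through the MET-KO libraries, so their direction was fixed. CCL7, like CCL2 a ligand for monocytes, had 0 counts in each MET+ library and 94 and 74 in MET-KO libraries, at least 23.9-fold higher (adjusted p = 3.77e-11, same edgeR test). CCL1 had 0 counts in each MET+ library and 60 and 44 in MET-KO libraries, at least 14.8-fold higher (adjusted p = 6.67e-09, same test). CCL11 had no count, and CCL8 and CCL13 had at most 2 in a library. In the CXC cluster on chromosome 4, the 3 genes that are not among the 46 (PF4V1, PF4 and PPBP) had at most 3 counts in a library.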
